A study of Homo sapiens with 12 samples.

Results

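Chromosome 8 is carried in extra copies by MOLM-13, a human acute myeloid leukaemia cell line with a KMT2A-MLLT3 fusion, and 786 of its acetylated regions are described here. They are the regions of chromosome 8 in which acetylated lysine 9 of histone H3 (H3K9ac) averaged at least 10 CPM over 6 libraries, where CPM are reads scaled to a total of 1000000 over all listed regions. The table listed 47648 regions of the hg38 genome, of which 2085 lay on chromosome 8. The 786 regions comprised 237 on the short arm (8p) and 549 on the long arm (8q), and all of them passed the filter for testing, a mean of at least 1 CPM. The groups were 3 libraries from cells cultured for 4 days with 4 µM WM-1119 and 3 from cells that received the solvent DMSO, with the same cell line and antibody target in both. WM-1119 is a small-molecule inhibitor of the lysine acetyltransferase KAT6A, and the comparison asks how H3K9ac differs once that enzyme is inhibited. The series has 12 samples, and the 6 input samples were not analysed here. All libraries come from 1 cell line, and nothing in the labels ties the replicates to separate cultures, so that p-values cover only a spread between libraries that may be technical.

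H3K9ac is placed on nucleosomes by acetyltransferase complexes and marks active promoters and enhancers. Broad, strong peaks usually lie over the starts of active genes, and shorter, weaker peaks lie over enhancers inside genes or between them. Reads from a chromosome with extra copies are more frequent in a sequencing library, both at acetylated regions and in the unspecific background, so that regions on such a chromosome carry more signal for the same mark per copy. Chromosome 8 carries KAT6A on its short arm and, on its long arm, the growth-promoting transcription factor gene MYC with the enhancers that drive it in blood cells.

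The regions were chosen by chromosome and by their mean CPM over the 6 libraries, so that their level is a description. The regions just below it averaged 9.91 CPM, at chr8:139894155-139894711 inside TRAPPC9, and 9.92 CPM, at chr8:66522001-66522557. Those just above it averaged 10.0 CPM, at chr8:141104615-141105058 near DENND3 and at chr8:22395517-22396095 at SLC39A14. For comparison, 10774 regions at or above the same mean were taken from 18 chromosomes, leaving out chromosomes 6, 8, 13 and 19. A region was called a gene end when it reached within 1 kb of either annotated end of a coding gene, since the annotation gives no strand, and starts of transcription inside a gene count as inside it.

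The libraries differed in depth. The values corresponded to 4542322, 9996190 and 12705349 reads in WM-1119 replicates 1 to 3, and to 719329, 1298443 and 7481097 reads in DMSO replicates 1 to 3. The median chromosome 8 region held 162, 334 and 384 reads in the WM-1119 libraries, against 41, 63 and 220 reads in the DMSO libraries. For WM-1119 replicate 2 these figures assume that its smallest step in CPM is 1 read, which could not be shown because the step lies near a round value. DMSO replicates 1 and 2 are therefore the least precise libraries, and their values are given apart from those of DMSO replicate 3 wherever a result rests on them. Myeloid marker genes carried the mark at a gene end, with means of 391 CPM at CEBPA, 245 CPM at SPI1 and 79.4 CPM at LYZ. MPO and CD33 had means of 9.56 and 3.67 CPM. Of the markers of other lineages, CD4 and CD79A had means of 34.0 and 14.7 CPM, 5 had means of 1.25 to 4.83 CPM and the other 8 had no region at a gene end.

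The label of a gained chromosome was set against the files through the signal per kb. Over 290 gene-end regions of 1 to 4 kb, taken at any mean, chromosome 8 had a median of 58.0, 55.8 and 56.0 CPM per kb in WM-1119 replicates 1 to 3 and of 51.1, 51.2 and 55.7 CPM per kb in DMSO replicates 1 to 3. These medians were 2.10, 2.03 and 2.03 times the median of the 18 comparison chromosomes in the WM-1119 libraries, and 2.20, 2.09 and 2.03 times in the DMSO libraries. Each comparison chromosome lay between 0.911 and 1.19 times that median in every library. The excess was therefore of like size in all 6 libraries, with either treatment. Chromosome 13 came next, followed by chromosome 6. Copy number itself was not measured, because the input samples were not analysed here.

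Weak regions told the libraries apart. Among regions of over 500 to 1200 bp, the 10th percentile of signal on chromosome 8 was 8.30, 5.98 and 5.44 CPM per kb in WM-1119 replicates 1 to 3, against 20.5, 17.0 and 5.24 CPM per kb in DMSO replicates 1 to 3. DMSO replicates 1 and 2 were the 2 high libraries, and DMSO replicate 3 lay just below the lowest WM-1119 library. Relative to the comparison chromosomes this was 1.94, 1.47 and 1.52 times in the WM-1119 libraries, and 2.63, 2.35 and 1.63 times in the DMSO libraries. The high level at weak regions in DMSO replicates 1 and 2 was thus larger on chromosome 8 than on any other autosome in the plot by chromosome.

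**Figure D1:**
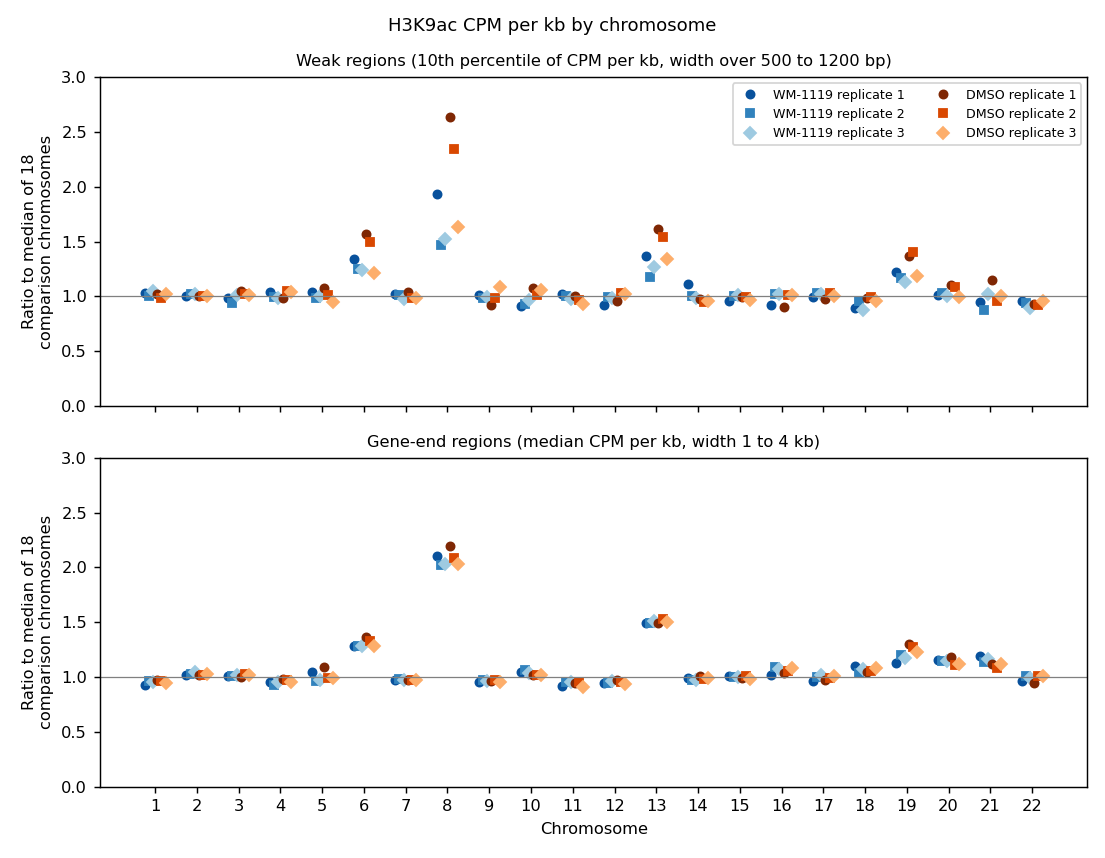
H3K9ac signal per kb on each autosome as a ratio to the median of 18 comparison chromosomes (vertical axes, linear), for weak regions (top) and gene-end regions (bottom). Each point is 1 library; in the bottom panel chromosome 8 sits between 2.03 and 2.20 in all 6 libraries, and in the top panel DMSO replicates 1 and 2 stand at 2.63 and 2.35, above the other 4 libraries.

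Both arms showed the excess at gene ends, and 8q more than 8p. On 8p, over 100 gene-end regions, the ratio was 1.83, 1.80 and 1.83 in WM-1119 replicates 1 to 3 and 1.89, 1.81 and 1.78 in DMSO replicates 1 to 3. On 8q, over 190 gene-end regions, it was 2.20, 2.24 and 2.20 in the WM-1119 libraries and 2.33, 2.31 and 2.18 in the DMSO libraries. Every library thus had the higher ratio on 8q. Weak regions had the same order of arms. Their ratio on 8p was 1.85, 1.37 and 1.41 in the WM-1119 libraries and 2.30, 2.02 and 1.51 in the DMSO libraries. On 8q it was 2.01, 1.63 and 1.60 in the WM-1119 libraries, and 2.87, 2.60 and 1.74 in the DMSO libraries. Chromosome 8 as a whole took 7.66%, 7.37% and 7.30% of all CPM in the WM-1119 libraries, against 8.30%, 7.97% and 7.20% in the DMSO libraries.

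Many chromosome 8 regions were among the strongest, and the part of the extra signal in this was not tested. Of the 786 regions 101 (12.8%) averaged at least 200 CPM, against 228 of the 10774 comparison regions (2.12%). These 101 strong regions were narrower, with a median width of 3558 bp against 5743 bp in comparison regions of that strength, and denser, with 82.4 against 47.5 CPM per kb. At the other end, 32.1% of the chromosome 8 regions averaged 10 to 20 CPM, against 23.9% of comparison regions. Those weak regions had a median width of 803 bp against 1232 bp in the comparison set. Between 20 and 50 CPM only 19.8% of the chromosome 8 regions were gene ends, against 66.8% of the comparison regions. A given mean therefore stood for a different kind of region on chromosome 8, where more of the weak members lie inside or between genes.

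In WM-1119 cells 9 of the 786 regions were lower and 0 were higher at a Benjamini-Hochberg adjusted p under 0.05, by limma on log2(CPM + 1) fitted over 44763 regions. The 9 regions were 1.15% of the chromosome 8 regions, against 0.0603% called lower of all tested regions and 0.0928% of the comparison regions. The share called higher was 0% in each set. At an unadjusted p under 0.05, 225 chromosome 8 regions (28.6%) were lower and 61 (7.76%) higher, against 10.8% lower and 2.58% higher of all tested regions. In the comparison regions these shares were 6.46% and 8.49%. The split of the chromosome 8 regions at this threshold was 162 lower and 14 higher after quantile normalization, 16 lower and 14 higher after centring each library on the comparison chromosomes, and 122 lower and 125 higher after subtracting the weak-region level. That centring used the median of all tested regions of those chromosomes, and it put the comparison regions at a median log2 difference of 0.81. The median log2 difference, WM-1119 minus DMSO, was -0.28 over the chromosome 8 regions (quartiles -0.77 and 0.10) and 0.09 over the comparison regions (quartiles -0.18 and 0.25). A lower value in such bulk samples cannot tell fewer cells with the mark from less mark per cell, and CPM show no change common to all regions.

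That median depended on which DMSO libraries were used. Against DMSO replicates 1 and 2 the median log2 difference of the chromosome 8 regions was -0.52, and 66.5% of them were lower in WM-1119 cells. Against DMSO replicate 3 alone it was 0.08, with 36.1% lower. The comparison regions gave 0.12 and 39.8% against DMSO replicates 1 and 2, and 0.01 and 47.8% against DMSO replicate 3. The direction for chromosome 8 therefore turned between DMSO libraries of the same treatment. Of the 225 regions lower at the unadjusted threshold, 127 (56.4%) also lay below DMSO replicate 3 on average. Of the 696 such comparison regions, 629 (90.4%) did. Complete separation, with all WM-1119 libraries below all DMSO libraries, was seen in 81 chromosome 8 regions (10.3%), against 13.2% of all tested regions and 7.8% of the comparison regions. The reverse separation was seen in 73 chromosome 8 regions (9.29%), against 3.76% of all tested regions and 12.2% of the comparison regions.

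The difference was graded by the strength of the region. The threshold bears on this grading: 154 of the 786 regions, all of them below 20 CPM, averaged under 10 CPM in WM-1119 cells and were included only through the DMSO libraries, and 0 were included only through the WM-1119 libraries. Those 154 regions had to be lower in WM-1119 cells, so that the counts of lower regions below 20 CPM are partly set by the choice of regions. Among comparison regions 850 of 10774 (7.89%) were included only through DMSO. All 252 regions of 10 to 20 CPM had a lower mean log2 value in WM-1119 cells (231 after quantile normalization and 151 after centring on the comparison chromosomes), 138 of them (54.8%) at the unadjusted threshold, against 16.7% of comparison regions of that strength. Of the 252, 98 averaged at least 10 CPM in both groups. Of the 172 regions of 20 to 50 CPM, 157 were lower, 69 of them (40.1%) at that threshold, against 6.99% of comparison regions. These sets differ in position, with fewer gene ends on chromosome 8. Inside genes the shares were 45.8% against 17.2% at 20 to 50 CPM, and 55.4% against 22% at 10 to 20 CPM. Between genes they were 52.4% against 17.8%, and 61.2% against 21.8%. At gene ends they were 8.82% against 1.82%, and 40.5% against 5.1%. In the range of 50 to 100 CPM 15 regions (13.6%) were lower and 5 (4.55%) higher at the unadjusted threshold. Comparison regions of that range had the opposite order, with 0.994% lower and 10.9% higher. From 100 to 200 CPM 3 (1.99%) were lower and 25 (16.6%) higher at that threshold, against 0.342% lower and 24.4% higher among comparison regions. At 200 CPM and over 0 were lower and 31 (30.7%) higher, against 41.2% higher among comparison regions of that strength. Of the 101 strongest chromosome 8 regions 93 had a higher value in WM-1119 cells, as did 210 of 228 comparison regions, but after quantile normalization these counts were 49 and 148, with a median of -0.00 on chromosome 8 and 0.06 in the comparison set.

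**Figure D2:**
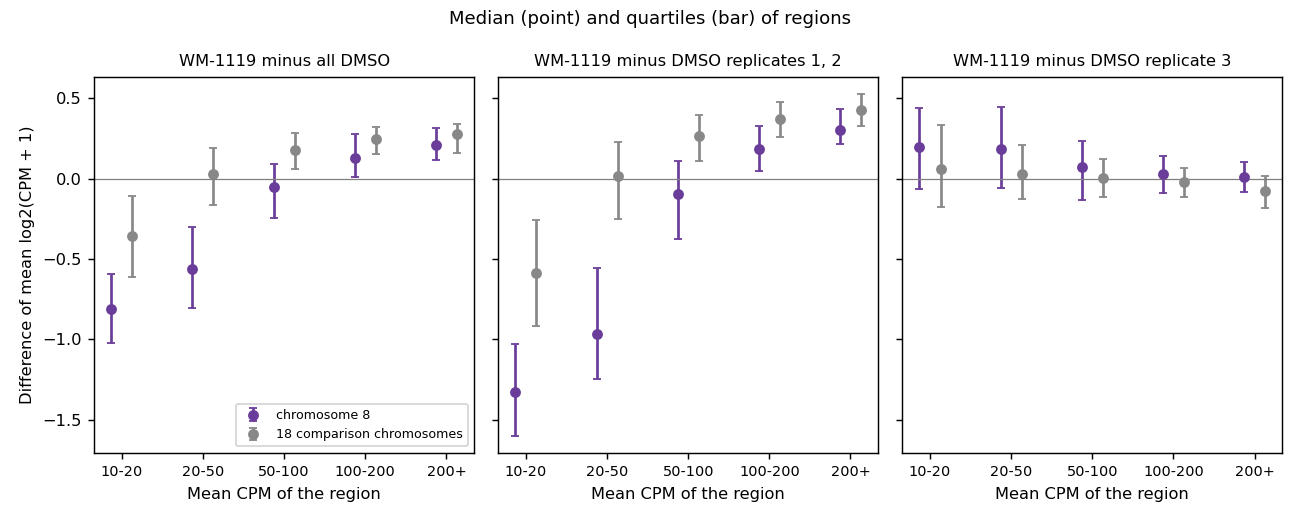
Difference in mean log2(CPM + 1), WM-1119 minus DMSO, by mean CPM of the region, against all DMSO libraries, DMSO replicates 1 and 2, and DMSO replicate 3 (panels left to right). Points are medians and bars quartiles for chromosome 8 (purple) and 18 comparison chromosomes (grey); the gap between the sets at 10 to 50 CPM is wide in the first and second panels and has the opposite sign in the third.

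Set against comparison regions of the same mean, the chromosome 8 regions differed by a median of -0.34 on the log2 scale, the lowest of 23 chromosomes, followed by chromosomes 13 (-0.17), 6 (-0.16) and 19 (-0.11). By strength this relative difference was -0.45 at 10 to 20 CPM, -0.59 at 20 to 50, -0.23 at 50 to 100, -0.12 at 100 to 200 and -0.07 at 200 CPM and over. Against DMSO replicate 3 alone it was between 0.05 and 0.15 in each of these ranges. Regions inside genes (-0.48) and between genes (-0.52) differed more than gene ends (-0.14), each set against comparison regions of all positions. The comparison regions had the same order, with median log2 differences of -0.22 inside genes, -0.30 between genes and 0.15 at gene ends. Matching also on the class of position gave -0.29, and matching on CPM per kb in place of CPM gave -0.48.

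The level of each library relative to the same comparison regions shows where the difference arose. Over all 786 regions this relative log2 level was -0.04, -0.19 and -0.26 in WM-1119 replicates 1 to 3, and 0.44, 0.31 and -0.26 in DMSO replicates 1 to 3. DMSO replicates 1 and 2 were high, and DMSO replicate 3 was level with the lowest WM-1119 library. At 20 to 50 CPM the levels were -0.13, -0.30 and -0.42 in the WM-1119 libraries and 0.75, 0.52 and -0.41 in the DMSO libraries. At 200 CPM and over they were 0.03, -0.04 and -0.07 in the WM-1119 libraries and 0.16, 0.03 and -0.12 in the DMSO libraries. The 2 DMSO libraries that were high at the weaker regions are the shallowest of the 6 and those with the highest weak-region level. The part of depth or of that level in the result was not tested.

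**Figure D3:**
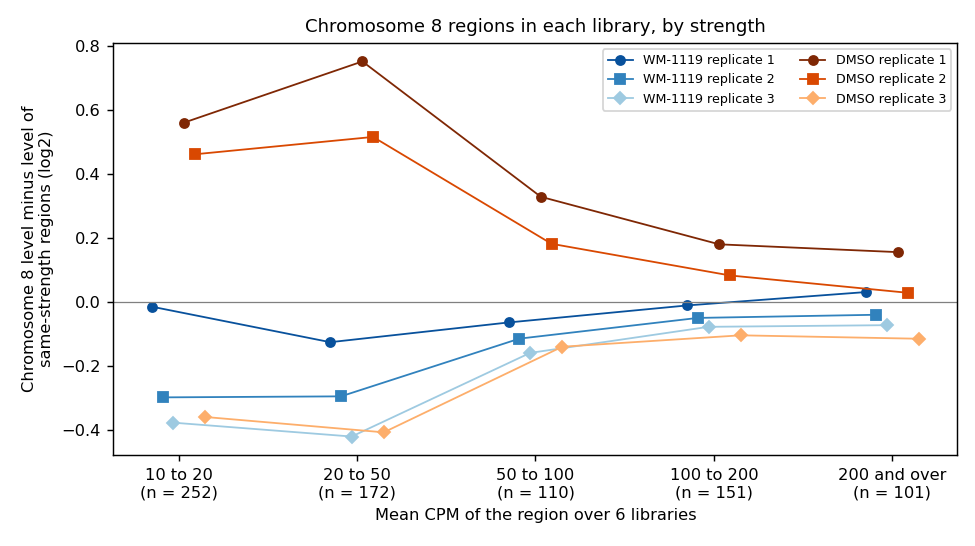
Level of chromosome 8 regions minus that of comparison regions of the same mean (log2, vertical axis) by mean CPM, with 1 line for each library. DMSO replicates 1 and 2 lie at 0.75 and 0.52 for regions of 20 to 50 CPM while the other 4 libraries lie between -0.42 and -0.13, and all 6 lie between -0.12 and 0.16 at 200 CPM and over.

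The difference also varied along the chromosome. In 10 Mb windows the difference relative to comparison regions ran from -0.15, between 40 and 50 Mb, to -0.50, between 130 and 140 Mb, and the share of regions lower at the unadjusted threshold ran from 13.7%, between 30 and 40 Mb, to 47.6%. These shares were not matched for strength or position. The window of 13.7% had a median mean of 89.4 CPM and 28 gene ends among 51 regions, and that of 47.6% had 21.8 CPM and 8 among 42. Over all windows DMSO replicate 1 lay between 0.27 and 0.70 and DMSO replicate 2 between 0.14 and 0.41, so that both were above 0 from one end of the chromosome to the other. By arm, the difference relative to comparison regions was -0.23 on 8p and -0.37 on 8q, and against DMSO replicate 3 alone it was 0.10 on 8p and 0.11 on 8q. The share of regions lower at the unadjusted threshold was 19.4% on 8p and 32.6% on 8q, where the median means were 45.8 and 36.9 CPM. All 9 called regions lay on 8q. The window from 130 to 140 Mb had 20 of 42 regions lower at that threshold, 1 of them called. The window from 110 to 120 Mb had 11 of 25 (44%), 3 of them called, and was the only window with a negative relative difference against DMSO replicate 3 (-0.07). The window from 120 to 130 Mb held 4 called regions among 61.

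**Figure D4:**
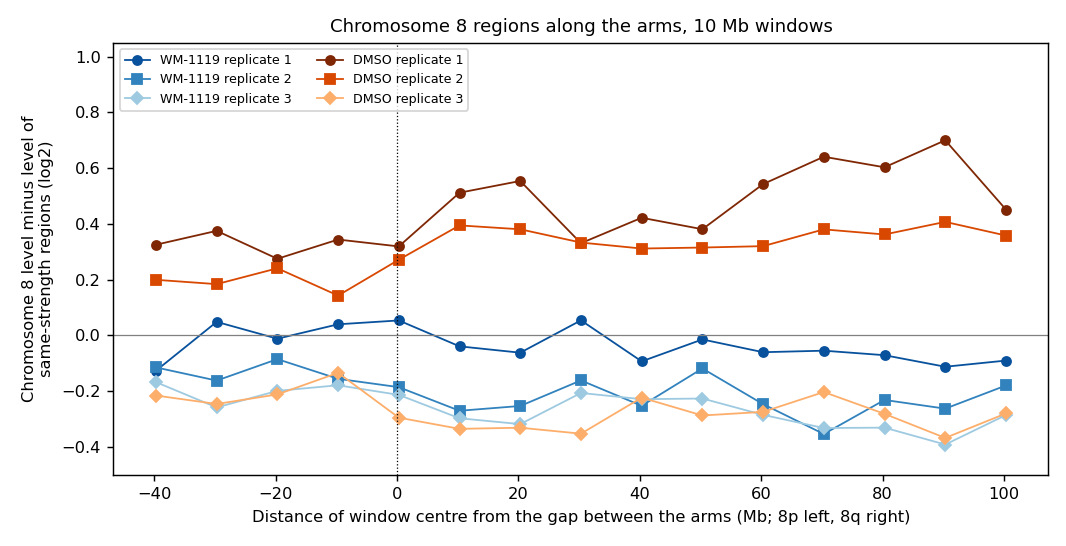
Level of chromosome 8 regions minus that of comparison regions of the same mean (log2, vertical axis) in 10 Mb windows, placed by the distance of the window's centre from the gap between the arms (Mb, 8p to the left). Each line is 1 library. DMSO replicates 1 and 2 stay between 0.14 and 0.70 along both arms. DMSO replicate 3 runs within or below the range of the WM-1119 libraries. Between 70 and 80 Mb it stands at -0.35, against -0.21 in the lowest WM-1119 library.

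Regions were also ordered by signal density. The 262 regions with the least signal per kb (10.3 to 19.99 CPM per kb) had a median log2 difference of -0.78 and a median of 0.23 against DMSO replicate 3. Of them 259 were lower in WM-1119 cells, 134 at the unadjusted threshold, and 16.8% were gene ends. At that threshold 10.8% of all tested regions and 6.46% of the comparison regions were lower, and comparison regions of like density were not counted. Any region included only through the DMSO libraries had to be lower, so that these counts are partly set by the choice of regions. The 262 densest regions (45.3 to 128 CPM per kb), 86.6% of them gene ends, had medians of 0.17 against all DMSO libraries and 0.02 against DMSO replicate 3. Only 39 of these were lower in WM-1119 cells.

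In each of the 9 called regions all WM-1119 libraries lay below all DMSO libraries, DMSO replicate 3 included. Of the 9, 8 lie inside annotated genes and 1 between genes, and none is a gene end. The chromosome 8 regions comprised 316 inside genes, 118 between genes and 352 gene ends. Inside genes 2.53% of the chromosome 8 regions were called lower, against 0.298% of 2683 comparison regions. Between genes these shares were 0.847% and 0.122%, and at gene ends 0% and 0.0137%. The 10 called comparison regions were split alike, with 8 inside genes, 1 between genes and 1 gene end. Of the 9 called regions of chromosome 8, CCDC26 and ENPP2 held 3 each, and the others lay in NDRG1, in LOC101927588 and nearest to TOX. Their means lay between 10 and 100 CPM. The weakest of ENPP2 and the one nearest to TOX averaged 3.54 and 6.27 CPM in WM-1119 cells and 16.9 and 22.6 CPM in DMSO cells, so that these 2 reached the threshold of 10 CPM only through the DMSO libraries and the other 7 did so in both groups.

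CCDC26 is a long non-coding RNA gene downstream of MYC, in a stretch known for enhancers of MYC in blood cells, and held 3 of the 9. The region chr8:129590875-129594133, inside CCDC26, had 41.4, 40.4 and 52.6 CPM in WM-1119 replicates 1 to 3, against 115, 111 and 98.1 CPM in DMSO replicates 1 to 3. All DMSO libraries lay near 100 CPM and the groups were far apart. Its log2 difference was -1.26 ± 0.18 (SE; limma adjusted p = 4.29e-05), and -1.12 against DMSO replicate 3 alone. It was the only chromosome 8 region that stayed called as lower when DMSO replicates 1 and 2 were left out (limma adjusted p = 0.00407). In that fit the lone DMSO library is assumed to vary like the WM-1119 libraries.

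The region chr8:129664716-129667390 of CCDC26 had 40.5, 39.9 and 44.7 CPM in WM-1119 replicates 1 to 3 and 87.6, 91.6 and 73.0 CPM in DMSO replicates 1 to 3. Here too the DMSO libraries were close together, and the log2 difference was -0.99 ± 0.19 (SE; limma adjusted p = 0.00664). The region chr8:129535356-129537356 had 25.3, 22.8 and 27.5 CPM in the WM-1119 libraries, against 76.5, 64.7 and 36.4 CPM in the DMSO libraries. Its log2 difference of -1.14 ± 0.22 (SE; limma adjusted p = 0.0104) shrank to -0.52 against DMSO replicate 3, which lay well below the other DMSO libraries.

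CCDC26 held 8 of the 786 regions in all. All 8 were lower in WM-1119 cells, 7 at the unadjusted threshold, and 7 of the 8 were lower against DMSO replicate 3 as well. Their median was -0.95 against all DMSO libraries and -0.49 against that one. Of all chromosome 8 regions inside genes 43.7% were lower at the unadjusted threshold and 35.4% were lower against DMSO replicate 3. The strongest region of CCDC26, chr8:129545431-129550658, had 323, 351 and 418 CPM in WM-1119 cells and 360, 363 and 498 CPM in DMSO cells, which overlap. Its log2 difference was -0.15 ± 0.14 (SE, limma adjusted p = 0.533). The 7 regions of CCDC26 below 100 CPM were thus lower at the unadjusted threshold, and 3 of them at the adjusted one, while its strongest region passed neither.

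ENPP2 encodes autotaxin, a secreted enzyme that makes lysophosphatidic acid. Its region chr8:119641076-119642867 had 35.7, 19.1 and 21.4 CPM in WM-1119 replicates 1 to 3, against 76.5, 58.5 and 44.9 CPM in DMSO replicates 1 to 3. The means were 25.4 ± 8.97 CPM in WM-1119 cells and 59.97 ± 15.8 CPM in DMSO cells (SD, n = 3 each), and the log2 difference was -1.23 ± 0.22 (SE; limma adjusted p = 0.00574). WM-1119 replicate 1 was the highest of its group in this and the other called ENPP2 regions, yet below every DMSO library.

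A neighbouring region, chr8:119643161-119644507, had 16.3, 9.40 and 12.3 CPM in WM-1119 cells and 48.7, 37.7 and 18.4 CPM in DMSO cells, with a limma adjusted p of 0.0385. The weakest, chr8:119637334-119637978, had 7.49, 1.00 and 2.13 CPM in WM-1119 cells and 22.2, 19.3 and 9.09 CPM in DMSO cells, with a limma adjusted p of 0.0402. In both, DMSO replicate 3 was nearer to WM-1119 replicate 1 than to the other DMSO libraries. All 5 regions of ENPP2, the 3 called ones included, were lower at the unadjusted threshold. All 5 were also lower against DMSO replicate 3, by a median of -0.71 on the log2 scale. Of all chromosome 8 regions inside genes 43.7% were lower at that threshold and 35.4% were lower against DMSO replicate 3.

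NDRG1, a stress- and hypoxia-responsive gene, carried a called region inside the gene at chr8:133244782-133246889. It had 37.0, 47.9 and 43.6 CPM in WM-1119 replicates 1 to 3 and 84.8, 87.8 and 71.9 CPM in DMSO replicates 1 to 3. The groups were each tight, with means of 42.8 ± 5.51 CPM in WM-1119 cells and 81.5 ± 8.44 CPM in DMSO cells (SD, n = 3 each), and a log2 difference of -0.91 ± 0.19 (SE; limma adjusted p = 0.0164). Against DMSO replicate 3 it was -0.74.

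The region chr8:124246476-124247660 inside the non-coding gene LOC101927588 had 15.2, 15.1 and 16.6 CPM in WM-1119 cells, against 58.4, 38.5 and 24.3 CPM in DMSO cells (limma adjusted p = 0.0255). The DMSO libraries were spread over a wide range there, with a mean of 40.4 ± 17.1 CPM (SD, n = 3). The only called region between genes, chr8:59236893-59237785, lies 117746 bp from TOX, which encodes a transcription factor of lymphocyte development. It had 9.03, 4.60 and 5.19 CPM in WM-1119 cells and 26.4, 27.7 and 13.6 CPM in DMSO cells, and a log2 difference of -1.68 ± 0.37 (SE; limma adjusted p = 0.0388). The gene-end region of TOX itself had 52.8, 61.0 and 85.2 CPM in WM-1119 cells and 77.9, 112 and 119 CPM in DMSO cells, with a log2 difference of -0.63 (limma adjusted p = 0.263).

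The calls depended on the libraries. None of the 9 was called when DMSO replicate 2 was left out, 1 was when DMSO replicate 1, WM-1119 replicate 2 or WM-1119 replicate 3 was left out, and 8 were without WM-1119 replicate 1. Without DMSO replicate 3, 375 of the 786 regions (47.7%) were called lower and 92 (11.7%) higher, and all 9 remained. In that fit 38.5% of all tested regions were called lower and 5.38% higher.

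Other genes with many regions showed how internal regions behaved. PTK2B, which encodes a tyrosine kinase of blood cells, held 8 regions, of which 7 were lower in WM-1119 cells and 4 at the unadjusted threshold, with a median log2 difference of -0.78. Against DMSO replicate 3 the median was -0.00. Of all chromosome 8 regions inside genes 88% were lower, and 43.7% were lower at the unadjusted threshold. LYN, a SRC-family kinase of myeloid cells, held 5, of which 4 were lower, with medians of -0.78 against all DMSO libraries and 0.19 against DMSO replicate 3. One of them, chr8:55975131-55975715, had 7.05, 4.40 and 4.33 CPM in WM-1119 cells and 32.0, 24.6 and 4.01 CPM in DMSO cells. DMSO replicate 3 lay below all 3 WM-1119 libraries there, although the region was lower at the unadjusted threshold.

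PLEC, which encodes a cytoskeletal linker protein, had medians of -0.38 over 8 regions against all DMSO libraries and of 0.51 against DMSO replicate 3. SLC45A4 had -0.47 and 0.28 over 8 regions in the same comparisons. PAG1, a membrane adaptor of SRC-family kinases, had -0.82 and -0.23 over 5 regions. Of the 17 genes with at least 5 regions, CCDC26 and ENPP2 were the only ones with called regions and had the lowest medians against DMSO replicate 3.

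No region passed the adjusted threshold as higher in WM-1119 cells. The smallest p belonged to chr8:60651284-60652903, a region 25837 bp from CHD7, which encodes a chromatin remodeller. It had 125, 102 and 99.2 CPM in WM-1119 replicates 1 to 3 and 66.7, 74.7 and 65.2 CPM in DMSO replicates 1 to 3. All WM-1119 libraries lay above all DMSO libraries, with a log2 difference of 0.65 ± 0.17 (SE; limma adjusted p = 0.19) and 0.72 against DMSO replicate 3. The gene-end region of CHD7 itself had 244, 191 and 191 CPM in WM-1119 cells and 186, 143 and 161 CPM in DMSO cells, and a log2 difference of 0.35 (limma adjusted p = 0.354).

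CEBPD encodes a transcription factor of myeloid differentiation. Its region, chr8:47734514-47739385, which also reaches an end of SPIDR, had 586, 730 and 676 CPM in WM-1119 cells and 389, 477 and 553 CPM in DMSO cells. The groups did not overlap, with means of 664 ± 72.9 CPM in WM-1119 cells and 473 ± 82.1 CPM in DMSO cells (SD, n = 3 each). The log2 difference was 0.50 ± 0.13 (SE; limma adjusted p = 0.194), and 0.26 against DMSO replicate 3. The next regions by p lay at BAG4, which encodes a chaperone regulator, in DPYSL2 and in TACC1, all on 8p. Each had a log2 difference of 0.49, with limma adjusted p of 0.263, 0.267 and 0.292. In each, DMSO replicate 3 was the highest DMSO library and lay below all WM-1119 libraries.

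**Figure D5:**
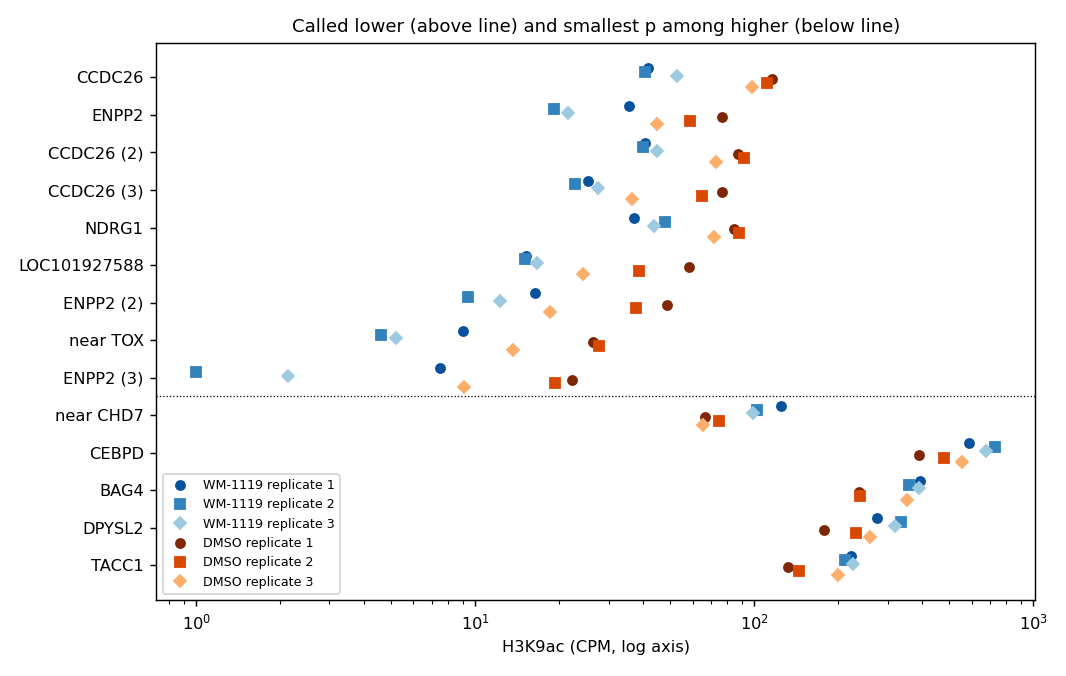
H3K9ac in CPM (horizontal axis, log scale) in each of 6 libraries for the 9 regions called lower in WM-1119 cells, above the dotted line, and the 5 higher regions of smallest p, below it. Where a gene has several regions they are numbered by p; WM-1119 points (blue) lie left of all DMSO points (orange) in the called regions, with DMSO replicate 3 the nearest.

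With DMSO replicate 3 as the only DMSO library, 2 regions passed as higher. They are named here after their values were seen. The gene-end region of KLF10, a TGF-beta-inducible transcription factor gene, at chr8:102653033-102657195 had 252, 237 and 201 CPM in WM-1119 cells and 214, 170 and 134 CPM in DMSO cells, with a log2 difference of 0.77 in that fit (limma adjusted p = 0.00564). DMSO replicate 1 lay inside the range of the WM-1119 libraries. The region at OSR2, chr8:98943937-98945690, had 40.7, 31.9 and 23.2 CPM in WM-1119 cells and 43.1, 50.8 and 9.62 CPM in DMSO cells, where DMSO replicates 1 and 2 were above and DMSO replicate 3 below every WM-1119 library.

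KAT6A encodes the acetyltransferase that WM-1119 inhibits. Its gene-end region, chr8:42050021-42053039, had 183, 147 and 168 CPM in WM-1119 replicates 1 to 3 and 131, 116 and 156 CPM in DMSO replicates 1 to 3. DMSO replicate 3 lay inside the WM-1119 range. The means were 166 ± 18.1 CPM in WM-1119 cells and 134 ± 20.4 CPM in DMSO cells (SD, n = 3 each), and the log2 difference of 0.31 ± 0.16 (SE) did not pass (limma adjusted p = 0.376). Against DMSO replicate 3 it was 0.08.

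The region over MYC, chr8:127734179-127740124, had 265, 337 and 375 CPM in WM-1119 cells and 281, 360 and 482 CPM in DMSO cells. The groups overlapped broadly, with means of 325 ± 56.0 CPM in WM-1119 cells and 374 ± 101 CPM in DMSO cells (SD, n = 3 each). Its log2 difference of -0.18 ± 0.15 (SE) did not pass (limma adjusted p = 0.499), and it was -0.58 against DMSO replicate 3 alone. After centring on the comparison chromosomes it was 0.55, where comparison regions of 200 CPM and over had a median of 1.00. With edgeR it was 0.12, where all comparison regions had a median of 0.46. Of the other genes around MYC, TRIB1, a pseudokinase gene, had 531, 324 and 305 CPM in WM-1119 cells and 342, 280 and 292 CPM in DMSO cells, where WM-1119 replicate 1 alone stood high. CYRIB, which encodes an inhibitor of RAC1 signalling, had 271, 241 and 239 CPM in WM-1119 cells and 178, 192 and 208 CPM in DMSO cells, with a log2 difference of 0.38 (limma adjusted p = 0.339). Over the 6 gene-end regions of the list of MYC and its neighbours, which include an end of the non-coding gene PVT1, 0 were called.

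The strongest regions were gene ends on both arms. On 8q they lay at ST3GAL1, a sialyltransferase gene, PDE7A, CEBPD, COPS5, a subunit of the COP9 signalosome, and YWHAZ, which encodes a 14-3-3 protein. ST3GAL1 had 618, 657 and 654 CPM in WM-1119 cells and 464, 533 and 645 CPM in DMSO cells. On 8p they lay at KBTBD11, HOOK3, SLC20A2, LETM2 and BAG4. KBTBD11 had 459, 659 and 675 CPM in WM-1119 cells and 368, 486 and 634 CPM in DMSO cells. In all 10 of these regions DMSO replicate 3 was the highest DMSO library, and their log2 differences ranged from 0.24 to 0.50.

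Gene ends of chromosome 8 genes were also read by function, and in these lists ends of non-coding genes such as PVT1 counted too. Over 7 lists of chromosome 8 genes, 185 genes had a gene-end region among the 786, in 174 regions. Of these 0 were called, 6 (3.45%) were lower and 27 (15.5%) higher at the unadjusted threshold, against 10.8% and 2.58% of all tested regions. Their median log2 difference was 0.13, and 0.04 against DMSO replicate 3, at a median mean of 162 CPM. The direction depended on the scaling, since quantile normalization gave a median of -0.07 with 58 of the 174 higher, against 129 without it, and centring on the comparison chromosomes gave 0.86 with 170 higher. That centring put comparison regions of 100 to 200 CPM at a median of 0.97, with 1461 of 1462 higher. Gene-end regions of the comparison chromosomes were lower in 1.28% and higher in 10.8% of cases at that threshold. Both of these sets are weaker, with a median mean of 4.02 CPM in all tested regions and 58.4 CPM in the comparison gene ends. Of comparison regions of 100 to 200 CPM 0.342% were lower and 24.4% higher. Of all 352 gene ends among the 786 regions 6.53% were lower and 14.2% higher.

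Among 40 regions of chromatin and transcription regulators 10 were lower and 30 higher in WM-1119 cells (15 higher after quantile normalization), 1 and 6 of them at the unadjusted threshold. ASH2L, a subunit of histone H3 lysine 4 methyltransferases, had 234, 256 and 256 CPM in WM-1119 cells and 132, 196 and 237 CPM in DMSO cells, where WM-1119 replicate 1 was below DMSO replicate 3. E2F5, a repressor of the E2F family, had 89.2, 80.3 and 79.5 CPM in WM-1119 cells and 95.9, 110 and 128 CPM in DMSO cells. It was the lower one at that threshold, with groups that did not overlap and a log2 difference of -0.41 (limma adjusted p = 0.344). MYBL1, a MYB-family transcription factor, had 140, 137 and 143 CPM in WM-1119 cells and 90.4, 116 and 114 CPM in DMSO cells, with a limma adjusted p of 0.342.

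Of the 18 regions of the list for myeloid differentiation and function 4 were lower and 4 higher at the unadjusted threshold. Among all 352 gene ends of the 786 regions 6.53% were lower and 14.2% higher, and among all tested regions 10.8% and 2.58%. Not every gene of the list is particular to myeloid cells. The lower regions were those of ANGPT1, LY6E and LY96 and the gene end of TOX described above. ANGPT1, the gene of the growth factor angiopoietin 1, had 28.6, 12.4 and 16.9 CPM in WM-1119 cells and 54.2, 47.0 and 27.1 CPM in DMSO cells, with a log2 difference of -1.13 ± 0.26 (SE; limma adjusted p = 0.0627). WM-1119 replicate 1 lay above DMSO replicate 3. LY6E, a surface protein gene, had 74.2, 74.5 and 83.4 CPM in WM-1119 cells and 97.3, 106 and 101 CPM in DMSO cells (limma adjusted p = 0.354), without overlap. LY96, the MD-2 co-receptor for lipopolysaccharide, had 6.82, 2.80 and 2.68 CPM in WM-1119 cells and 33.4, 15.4 and 4.01 CPM in DMSO cells, where only DMSO replicates 1 and 2 were high, and the region reached the threshold of 10 CPM only through them.

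Among the strong gene ends of the same list, CA2, a carbonic anhydrase gene, had 293, 375 and 347 CPM in WM-1119 cells and 311, 375 and 362 CPM in DMSO cells, which overlap. The higher ones at that threshold, beside CEBPD, were LYN, CTSB and SDCBP. LYN had 328, 295 and 302 CPM at its gene end in WM-1119 cells and 218, 225 and 288 CPM in DMSO cells. Its log2 difference there was 0.35 (limma adjusted p = 0.345), and 0.10 against DMSO replicate 3.

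The strongest gene ends of the lists that are not described above had overlapping groups in all 10 cases reported. HSF1, the heat shock transcription factor gene, shares a region with BOP1 that had 314, 354 and 320 CPM in WM-1119 cells and 275, 330 and 344 CPM in DMSO cells. RECQL4, a DNA helicase gene, had 338, 438 and 475 CPM in WM-1119 cells and 295, 375 and 510 CPM in DMSO cells. In both, DMSO replicate 3 was the highest DMSO library. RB1CC1, an autophagy gene, had 476, 342 and 321 CPM in WM-1119 cells and 335, 290 and 336 CPM in DMSO cells, where WM-1119 replicate 1 alone stood high. RPL7, a ribosomal protein gene, had 505, 558 and 534 CPM in WM-1119 cells and 380, 455 and 566 CPM in DMSO cells. The log2 differences of these and of ZBTB10, PPP3CC, PLEKHF2, PABPC1, AZIN1 and RNF139 ranged from 0.06 to 0.33, and their limma adjusted p from 0.358 to 0.787.

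Replication and repair genes had 2 lower and 15 higher regions (5 higher after quantile normalization), 0 and 2 at the unadjusted threshold. The shared region of PRKDC and MCM4, a DNA repair kinase and a replicative helicase subunit, had 418, 472 and 448 CPM in WM-1119 cells and 272, 401 and 421 CPM in DMSO cells (limma adjusted p = 0.354). Ribosome and translation genes had 4 lower and 19 higher regions (4 higher after quantile normalization), with 0 at that threshold in either direction and a median log2 difference of 0.15. Genes of mitochondria, protein turnover and membrane traffic had 8 lower and 44 higher (20 after quantile normalization), 1 and 12 at the threshold, and a median of 0.17, which was 0.03 against DMSO replicate 3. Genes of cell death, stress and kinase signalling had 10 lower and 15 higher (9 after quantile normalization), 0 and 3 at the threshold, with a median of 0.12. At the unadjusted threshold 6.53% of all 352 gene ends among the 786 regions were lower and 14.2% higher, against 10.8% and 2.58% of all tested regions. The list medians lay between -0.07 and 0.17 against all DMSO libraries and between -0.05 and 0.23 against DMSO replicate 3.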

How the data were processed

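H3K9ac ChIP-seq of MOLM-13 was deposited as 1 table of values per region. Per the submitters' processing notes the tools included MACS2, Bowtie2, bedtools and SAMtools and the build was hg38; versions and how regions were merged are not given in the sources used here. Deposited by the authors as TPM, the values are CPM scaled to 1000000 over all regions: in 5 libraries values of up to 100 reads lay within 0.02 of whole reads, and for WM-1119 replicate 2 the step was too near a round value to tell.

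The members and gene lists were chosen with earlier results of these data known. limma 3.58.1 in R 4.3.3 (trend and robust, treatment only) was fitted to log2(CPM + 1) of all regions averaging 1 CPM or more over the 6 libraries, with Benjamini-Hochberg adjustment over all; fold changes on this scale understate those of weak regions. It was tested on simulated data. Starts were taken as counted from 0 and 1 was added. Genes came from RefSeq (GRCh38.p14), matching 232 of 237 list symbols; exons and introns were not used. Relative levels and differences are medians over chromosome 8 regions less those of comparison regions in 5 bins of mean CPM, weighted by chromosome 8 regions. A count of 0 allows up to 3 reads, which is 0.236 to 0.660 CPM in WM-1119 libraries and 0.401 to 4.17 CPM in DMSO libraries, for counting error only.

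Named were the called regions, the 5 of smallest p in a direction with none, the 5 strongest of each arm, KAT6A, MYC and CEBPD, and strong list genes, of which 1 is not reported here; other regions and genes were chosen after their values were seen. Alternatives were other pseudocounts, filters, scalings, spread models, thresholds, windows, a replicate block, left-out libraries, background subtraction and edgeR 4.0.16 on recovered reads of 5 libraries; matching by class of position or CPM per kb was added after seeing the data. Tables used Python 3.11.15, pandas 2.3.3, numpy 2.4.6 and matplotlib 3.10.9.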

Additional observations from a re-analysis of the deposited data

How the results depend on the processing

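The 9 regions called lower became 1 with a filter at 10 CPM, with quantile normalization, with centring on the comparison chromosomes, and without DMSO replicates 1 and 2; they became 0 with limma without trend and robust and with edgeR on the reads of 5 libraries, and numbered 6 to 10 with the other pseudocounts, no filter or background subtraction. edgeR had 44 regions lower at an unadjusted p under 0.05 and limma without trend and robust 67. Leaving out 1 library at a time gave 0 to 375 called lower and 0 to 92 called higher, both highest without DMSO replicate 3. The replicate block gave 88 lower (11.2%) and 7 higher (0.891%), against 0.858% and 0.25% of all tested regions. Nothing in the labels says that the numbers mark pairs, and the correlations do not settle it. Deviations of same-numbered libraries correlated by 0.22, 0.05 and 0.33. For replicates 1 and 3 this was the highest value of either library with the other group. DMSO replicate 2 correlated about equally with WM-1119 replicates 1 (0.055) and 2 (0.053). After background subtraction 12 regions were called higher and 10 lower, against 25 higher and 51 lower of all tested regions. The 12 included regions of CEBPD, BAG4, DPYSL2, TACC1, KLF10 and MYBL1 and the one near CHD7 (limma adjusted p from 0.00151 to 0.0168). None of these passed when treatment alone was fitted to the values of all libraries as deposited. The 225 regions lower at an unadjusted p under 0.05 became 147 with the 10 CPM filter, 16 with centring, 33 without DMSO replicates 1 and 2, 122 after background subtraction, and 74 to 408 without 1 library. The median log2 difference of -0.28 turned to 0.45 with centring, which shifted every region by 0.73 and put the comparison regions at a median of 0.81. The chromosome 8 median turned to 0.084 without DMSO replicates 1 and 2, and to 0.023 after background subtraction. Without 1 library it lay between -0.52 and -0.11. The relative difference of -0.34 turned to 0.11 without DMSO replicates 1 and 2, and lay between -0.55 and -0.18 without 1 library. The cause was not tested. Relative levels of each library moved by less than 1 SD under other thresholds, pseudocounts and comparison sets. That SD, 0.37, was taken over the relative levels of the 3 DMSO libraries, which lie far apart. It is larger than most of the levels themselves, so that it is a loose bound.

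Of single genes, quantile normalization gave -0.15 at HSF1, -0.051 at PABPC1, -0.080 at PLEKHF2, -0.078 at RECQL4, -0.0028 at RB1CC1, -0.069 at RNF139, -0.011 at RPL7 and -0.087 at ZBTB10, all above 0 with the values as deposited. Without DMSO replicates 1 and 2 the values were -0.063 at HSF1, -0.11 at KBTBD11 and PDE7A, -0.027 at PABPC1, -0.30 at RECQL4, -0.036 at RNF139, -0.088 at RPL7, -0.0058 at ST3GAL1 and -0.078 at ZBTB10. CA2, at -0.05 as deposited, was at 0.68 with centring and 0.28 with edgeR. MYC was at 0.55 and 0.12 in the same settings. Comparison regions of 200 CPM and over had a median of 1.00 with centring, and all comparison regions one of 0.46 with edgeR. Without 1 library HSF1 ranged from -0.035 to 0.12, RECQL4 from -0.083 to 0.31, ZBTB10 from -0.0052 to 0.24, CA2 from -0.13 to 0.050 and MYC from -0.37 to 0.017. Depth limits the weak regions most, since 1 read was worth 1.39 CPM in DMSO replicate 1 and 0.0787 CPM in WM-1119 replicate 3.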

Other observations

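Other genes of 8q with at least 5 regions were read in the same way, chosen after their values were seen. CYRIB held 6 of the 786 regions, of which 5 were lower in WM-1119 cells, with a median log2 difference of -0.68 against all DMSO libraries and 0.17 against DMSO replicate 3. ASAP1 held 5, with medians of -0.60 and 0.54 in the same comparisons. TG, the thyroglobulin gene, held 5 without a gene end among them, with medians of -0.87 and -0.15. AGO2, DENND3 and NCALD, with 5 regions each, had medians between -0.96 and -0.74 against all DMSO libraries and between 0.23 and 0.45 against DMSO replicate 3.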
